A study of Mus musculus with 8 samples.

Results

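The receptors for GABA, glutamate and glycine and the nicotinic receptors for acetylcholine were described in isolated pituitary gonadotropes of male and female mice. Members were all genes whose symbol belongs to the GABA-A, GABA-A rho or GABA-B receptors, to the AMPA, kainate, NMDA, delta or metabotropic glutamate receptors, or to the glycine or nicotinic receptors. This rule uses names and no measured value, and it selected 68 of the 55523 entries of the count table. GABA-A and glycine receptors are chloride channels, and AMPA, kainate, NMDA and nicotinic receptors are cation channels, each assembled from several subunits whose mixture sets the channel's properties. GABA-B and metabotropic glutamate receptors act through G proteins instead. GABA receptors have been described on endocrine cells of the anterior pituitary, while the main known use of these transmitters in reproduction is upstream, at the neurons that release GnRH.

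Every sample came from Ad4BP-BAC-EGFP mice, in which a bacterial artificial chromosome carrying *Nr5a1* (Ad4BP) regulatory sequence drives EGFP, and EGFP-positive pituitary cells were collected by cell sorting. The groups were 4 male and 4 female samples, both sexes carrying the transgene, with no further treatment named and with the age not given in the sources used here. RNA-seq libraries were made with a kit for low RNA input, which does not mark the strand. The sources do not say whether the samples of a sex were separate animals, so that p-values measure the spread between these samples only. The study left male replicate 1 out of its comparison, and it is shown apart here. Male replicates 2 to 4 are called the compared males in what follows.

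The deposited values were read counts per gene, with totals between 18774578 and 31302588 per sample. They were expressed as CPM, the counts of a gene per 1000000 counts of its library, after TMM scaling of the library sizes, which makes the bulk of genes comparable between samples. A value of 3 counts, taken as the floor, corresponded to between 0.0921 and 0.146 CPM, covering counting error only. The 5 gonadotrope markers *Lhb*, *Fshb*, *Cga*, *Gnrhr* and *Nr5a1* summed to between 67930 and 75717 CPM in the compared males, to between 21488 and 34863 CPM in the females and to 28423 CPM in male replicate 1. *Nr5a1* itself, at 584 to 801 CPM in the compared males and 862 to 1266 CPM in females, was only 16.3 CPM in male replicate 1. The sorted cells also carried RNA of other pituitary cells, with *Gh* between 12394 and 142244 CPM in the 7 compared samples, and in bulk RNA fewer cells of a type and less RNA per cell cannot be told apart. Among the other marker lists, the summed levels of the somatotrope (2 genes) and thyrotrope (2 genes) lists were higher in each of the compared males than in any female. Those of the stem cell (30.0 to 37.8 CPM in males, 50.8 to 78.9 CPM in females), neuron (85.7 to 106 and 132 to 225 CPM) and skeletal muscle lists (0.566 to 2.40 and 4.60 to 8.63 CPM), each of 2 genes, were higher in every female. No marker of these lists was at 0 in a whole sex, and the part of these cell types in the results that follow was not tested.

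Most receptor genes left some transcript in these cells. Of the 68 members, 62 had at least 1 count and 6 had 0 counts in all 8 samples, namely the GABA-A subunit *Gabra6*, the rho subunits *Gabrr1* and *Gabrr3*, the glycine receptor subunits *Glra3* and *Glra4*, and the metabotropic receptor *Grm6*. At 1 CPM or more in every sample of a group, 36 members were detected in the compared males, 34 in the females and 33 in all 7 samples. Male replicate 1 alone had 42 members at that level. Levels of different genes were compared per kb of annotated exon (GENCODE M21), because longer transcripts yield more reads. On that scale, among the members described here, *Chrnb3* was the highest in males, at 10.9 CPM per kb, followed by *Chrnb2* (9.49), *Chrna9* (7.51), *Chrna4* (7.47) and *Grik3* (6.10). In females the order was *Chrna9* (23.9 CPM per kb), *Chrnb2* (11.0), *Chrnb1* (6.04), *Chrna4* (5.93) and *Gria1* (5.21). The places of *Chrna9* and *Chrna4* are loose, as *Chrna9* spanned 24.5 to 127 CPM and *Chrna4* 1.93 to 48.1 CPM among the females.

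**Figure D1:**
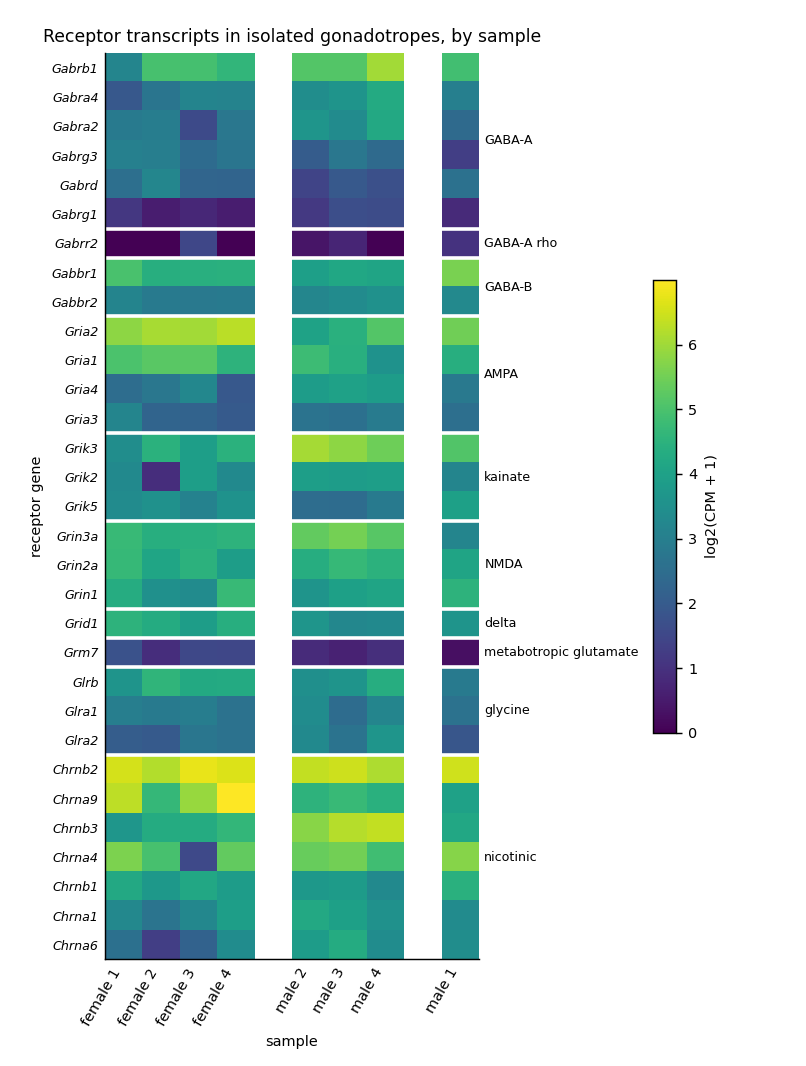
Heat map of 31 receptor genes named by rule (rows, by family) in the 8 samples (columns), with color for log2(CPM + 1), and with male replicate 1 apart on the right. *Chrnb2* is bright in every sample, whereas *Grik3* and *Chrnb3* are brighter in male replicates 2 to 4 and *Gria2* in the females.

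The sexes were compared by edgeR's quasi-likelihood test, fitted on the whole table with the compared males and the 4 females. The p-values were adjusted by the Benjamini-Hochberg method over all 20152 genes tested, with a threshold of 0.05. Of the 48 members with enough counts to be tested, 2 passed, the nicotinic subunit *Chrnb3* and the kainate receptor subunit *Grik3*, both higher in males. Over all genes tested, 471 passed (2.34%), with 198 higher in males (0.983%) and 273 higher in females (1.35%). At that general share, about 1 of 48 members would have passed. The samples of the sexes did not overlap for 14 of the 48 members, 9 higher in males and 5 higher in females, against 22.3% of all genes tested (11.5% higher in males and 10.8% higher in females). With CPM scaled by library size alone, the sexes were apart for 16 members, 6 higher in males and 10 higher in females, against 25.3% of all genes (5.35% and 19.9%), and *Gabbr2*, *Gabrb1* and *Gabrg1* then overlapped. The median log2 fold change (male over female) was 0.19 over these members and -0.03 over all genes tested, and an unadjusted p under 0.05 was found for 19 members (39.6%) and for 19.9% of all genes. DESeq2 called 9 members, namely *Chrnb3*, *Grik3*, *Grin3a* and *Gria4* as higher in males and *Gria2*, *Grid1*, *Grik5*, *Chrna9* and *Gabrd* as higher in females. These were 18.8% of the 48 members, against 11.6% of all genes by DESeq2 (5.29% higher in males and 6.27% higher in females). With library size alone as the scaling, 5 members (10.4%) passed, against 4.01% of all genes, and the split over all genes was 133 higher in males against 675 higher in females.

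**Figure D2:**
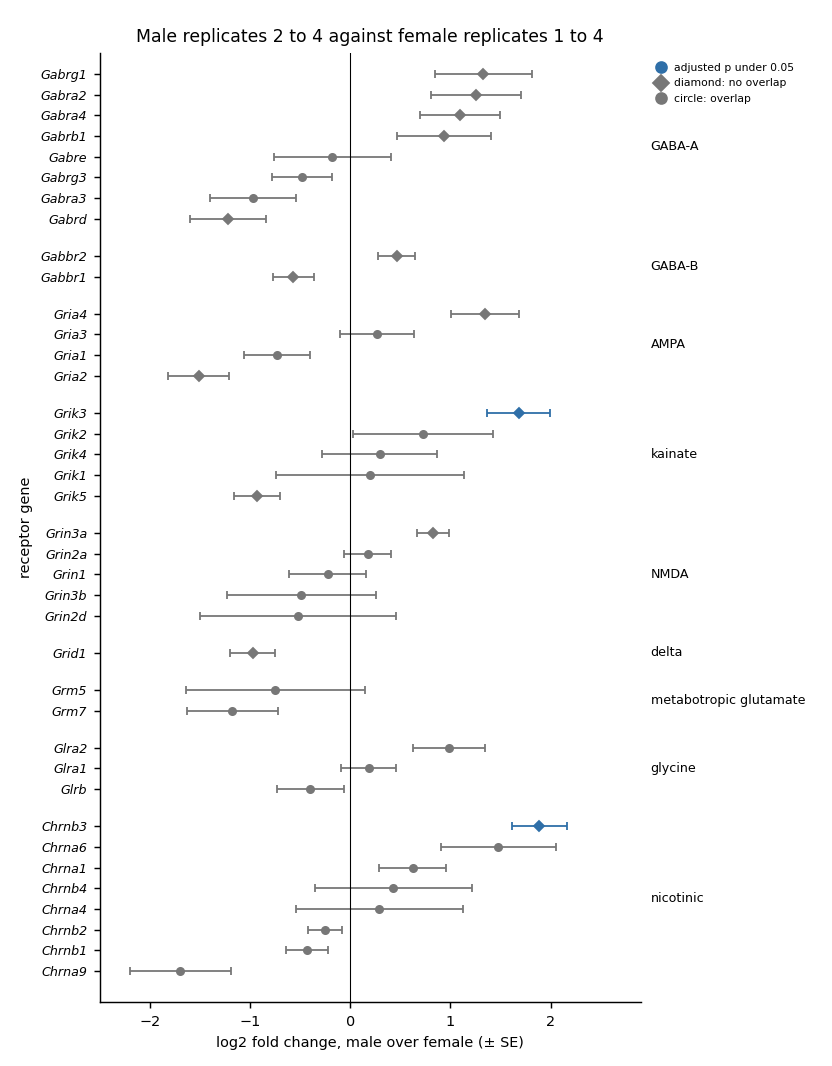
The log2 fold change of male replicates 2 to 4 over female replicates 1 to 4 (horizontal axis, ± SE) for 38 of the 48 tested receptor genes, by family. Of the 10 not drawn, 6 have an SE of over 1. Blue marks an adjusted p under 0.05, and diamonds mark genes whose samples do not overlap between the sexes.

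The nicotinic receptor genes held both the member with the smallest adjusted p and a member with a high level per kb in females. *Chrnb3*, on chr8:27368711-27399730 (plus strand, mm10), encodes the beta 3 subunit, an accessory subunit that joins receptors with alpha 6. It was 53.3, 73.5 and 80.7 CPM in the compared males, and 11.7, 18.8, 18.9 and 23.7 CPM in the females. The groups did not overlap, but male replicate 1, at 17.3 CPM, lay among the females. The log2 fold change was 1.89 (SE 0.27, adjusted p = 0.0296 by edgeR), and the two-sided exact permutation test of mean log2(CPM + 1) gave p = 0.0286, the smallest that 3 samples against 4 allow. The adjusted p was 0.0411 without female replicate 1 and 0.0460 without female replicate 4, and it rose above the threshold without female replicate 2 (0.0750), female replicate 3 (0.0623), male replicate 2 (0.0602), male replicate 3 (0.0976) or male replicate 4 (0.0718). It was 0.238 with male replicate 1 included.

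The neighboring gene *Chrna6*, which encodes the alpha 6 subunit, lies at chr8:27403212-27413944 on the minus strand, and both genes fall within 45.2 kb. *Chrna6* was 13.7, 18.9 and 9.58 CPM in the compared males, against 5.004, 1.46, 3.59 and 9.60 CPM in the females. Here a female sample reached the lowest male, and the log2 fold change of 1.48 (SE 0.57) did not pass the test (adjusted p = 0.213).

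*Chrna9*, the alpha 9 subunit known from the receptors of cochlear hair cells, had the opposite direction. It was 77.7, 24.5, 59.6 and 127 CPM in the females, and 21.9, 25.3 and 20.9 CPM in the compared males. Female replicate 2 lay within the male range, and the log2 fold change of -1.70 (SE 0.51) did not pass (adjusted p = 0.127). *Chrna10*, which pairs with *Chrna9* in hair cells, was at most 1.36 CPM in the 7 samples, and its annotated exons overlap those of *Art1*.

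*Chrna4* and *Chrnb2* encode the subunits of the main nicotinic receptor of the brain. *Chrnb2* was between 69.9 and 88.0 CPM in the compared males and between 72.0 and 108 CPM in the females (log2 fold change -0.25, SE 0.17). A part of its annotated exons overlaps those of *Adar* on the other strand, and reads in that part cannot be told apart from those of *Adar*. *Chrna4* was 40.3, 44.4 and 27.7 CPM in these males and 48.1, 30.4, 1.93 and 38.8 CPM in the females, where female replicate 3 stood far below the others. Its log2 fold change of 0.29 (SE 0.83) turned to -0.080 without that sample. The subunits of the muscle receptor were also present, with *Chrnb1* at 11.6 ± 2.30 CPM in males (SD, n = 3) and 15.3 ± 2.77 CPM in females (SD, n = 4), and *Chrna1* at 14.4 ± 3.57 and 9.12 ± 3.62 CPM (log2 fold changes -0.43 and 0.62, neither past the test). The muscle subunits *Chrnd* and *Chrng* had counts in 1 sample each, and *Chrne* had a mean of 2.95 CPM in males and 1.45 CPM in females. The *Chrna5*, *Chrna3* and *Chrnb4* genes, adjacent on chromosome 9, were low, with a highest mean of 3.92 CPM for *Chrnb4* in males.

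**Figure D3:**
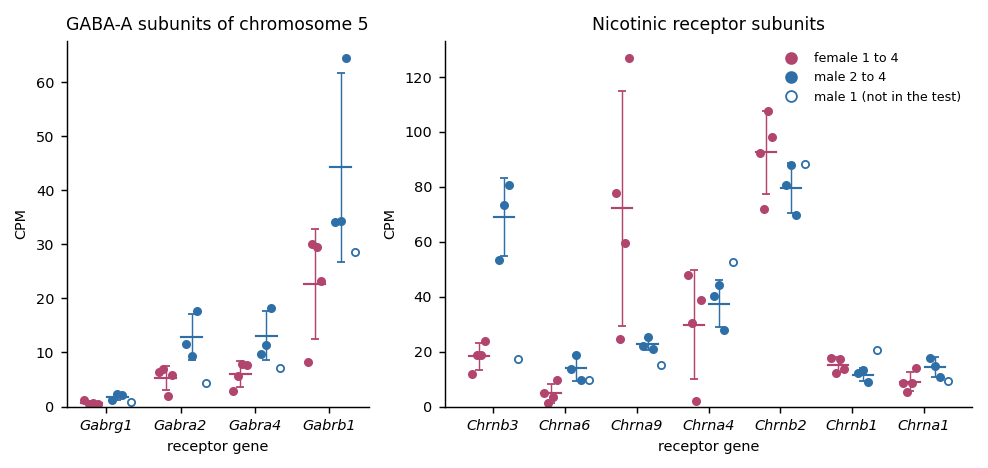
CPM (vertical axes, linear) of 4 neighboring GABA-A receptor genes and of 7 nicotinic receptor genes in each sample, with the mean and SD of female replicates 1 to 4 and of male replicates 2 to 4. *Chrnb3* separates the sexes, with male replicate 1 (open circle, 17.3 CPM) among the females, and *Chrna9* spreads from 24.5 to 127 CPM among the females.

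Of the 5 kainate receptor genes, 1 passed the test, and its call rested on every one of the 7 samples. *Grik3*, at chr4:125490700-125714173 (plus strand), encodes the GluK3 subunit, which can form a channel by itself. It was 66.1, 55.3 and 42.8 CPM in the compared males, 9.84, 21.3, 14.2 and 21.1 CPM in the females and 33.3 CPM in male replicate 1. The groups did not overlap, and male replicate 1 lay between them. The log2 fold change was 1.68 (SE 0.31, adjusted p = 0.0477 by edgeR; exact permutation p = 0.0286). This call was lost whichever of the 7 samples was left out, with an adjusted p of 0.0593, 0.0808, 0.0836 and 0.0753 without female replicates 1 to 4 and of 0.147, 0.143 and 0.0858 without the compared males. It was 0.111 with male replicate 1 included.

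*Grik5* encodes GluK5, which needs a partner such as GluK3 or GluK2 to form a channel. It had values of 9.37, 10.6, 7.52 and 10.9 CPM in the females and of 4.65, 4.57 and 6.27 CPM in the compared males, without overlap. Its log2 fold change of -0.93 (SE 0.23) did not pass (adjusted p = 0.0824), and male replicate 1, at 14.6 CPM, lay above every other sample. *Grik2*, which encodes GluK2, was 14.1, 13.6 and 14.3 CPM in these males and 9.02, 0.878, 14.2 and 9.08 CPM in the females, where female replicate 2 was lowest. Per kb of exon, *Grik3* made up 71.5% of the kainate receptor transcripts in the compared males (range 62.2 to 78.0%) and 39.6% in the females (27.2 to 51.2%). The share of *Grik5* was 12% (9.53 to 15.8%) in these males and 40.5% (33.3 to 45.0%) in the females. Male replicate 1, with a *Grik3* share of 48.6% and a *Grik5* share of 37.1%, lay within both female ranges, and the shares were not tested. Summed over the family, kainate receptor transcripts were between 67.2 and 85.5 CPM in these males, between 31.1 and 42.4 CPM in the females and 59.2 CPM in male replicate 1.

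AMPA receptor transcripts went the other way in sum, at 61.4 to 65.0 CPM in the compared males, 99.1 to 112 CPM in the females and 74.5 CPM in male replicate 1. *Gria2*, at chr3:80681450-80802835 (minus strand), encodes GluA2, the subunit that keeps AMPA receptors nearly impermeable to calcium. It was 54.8, 66.8, 64.0 and 75.9 CPM in the females, and 15.2, 20.8 and 33.9 CPM in the compared males. Every female exceeded every one of these males, and male replicate 1 lay between them at 43.6 CPM. The log2 fold change of -1.51 (SE 0.30) missed the threshold (adjusted p = 0.0529 by edgeR; exact permutation p = 0.0286), and it passed with at least 10 counts required in every sample (0.0446) or without male replicate 4 (0.0400).

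*Gria4*, which encodes GluA4, was 13.7, 15.1 and 13.5 CPM in the compared males and 4.66, 5.80, 8.41 and 2.81 CPM in the females. The groups did not overlap, yet the log2 fold change of 1.35 (SE 0.34) did not pass either (adjusted p = 0.0872 by edgeR, exact permutation p = 0.0571). *Gria1* (GluA1) was 19.5 ± 8.11 CPM in these males (SD, n = 3) and 31.5 ± 6.56 CPM in the females (SD, n = 4), and *Gria3* (GluA3) 5.67 ± 0.816 and 4.62 ± 2.34 CPM, with overlap in both. Per kb of exon, *Gria2* made up 20.5% of the AMPA receptor transcripts in males (range 12 to 32.1%) and 39.7% in females (34.2 to 52.5%), and *Gria4* 29.8% (26.5 to 31.5%) and 7.80% (4.79 to 11.3%). In male replicate 1 the *Gria2* share was 37.1% and the *Gria4* share 12.8%, in or near the female ranges.

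The 250 bases before the start of *Grik3*, *Gria2* and *Gria4* are shown because these glutamate receptor genes had the largest log2 fold changes among the glutamate receptor genes whose sexes did not overlap, and they went in both directions. They are given 5′ to 3′ along the gene (RefSeq, GRCm38.p6), in lower case, with capitals for the GC box, GGGCGG on either strand, at chr4:125490446-125490695 (plus strand), chr3:80802836-80803085 (minus strand) and chr9:4796235-4796484 (minus strand).
Grik3: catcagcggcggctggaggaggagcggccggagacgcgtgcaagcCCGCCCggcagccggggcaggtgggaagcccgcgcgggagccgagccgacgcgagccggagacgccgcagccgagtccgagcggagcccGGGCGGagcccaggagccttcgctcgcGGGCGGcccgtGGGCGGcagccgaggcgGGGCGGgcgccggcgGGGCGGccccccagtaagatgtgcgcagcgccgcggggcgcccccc
Gria2: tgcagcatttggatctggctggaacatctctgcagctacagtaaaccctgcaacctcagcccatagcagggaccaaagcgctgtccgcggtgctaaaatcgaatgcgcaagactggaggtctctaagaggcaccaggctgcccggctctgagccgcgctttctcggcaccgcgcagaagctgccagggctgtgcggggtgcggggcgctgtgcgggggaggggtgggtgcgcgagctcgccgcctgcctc
Gria4: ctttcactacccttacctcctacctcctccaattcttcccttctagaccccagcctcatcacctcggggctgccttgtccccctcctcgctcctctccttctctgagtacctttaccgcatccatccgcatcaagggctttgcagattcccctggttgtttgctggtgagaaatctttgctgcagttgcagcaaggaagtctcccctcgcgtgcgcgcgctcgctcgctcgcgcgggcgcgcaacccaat
The window of *Grik3* had a GC content of 82.0%, 42 CpG dinucleotides and 6 GC boxes. Those of *Gria2* and *Gria4* had a GC content of 64.8% and 58.8%, 19 and 16 CpG dinucleotides and no GC box. Promoter sequences were found for 48 of the 68 members (56 windows), with a median GC content of 59.0%, against 52.4% over all 32817 windows of the table. The GC box was found in 46.4% of the member windows and in 32.7% of all windows. The letters of the core site of NR5A1, AAGGTCA, were in 1 member window (*Grin2c*) and in 4.08% of all windows, and those of the AP-1 site, TGANTCA, were in 3 (*Chrna1*, *Grin3b* and *Grm8*) and in 6.75% of all. The letters of the cyclic AMP response element, TGACGTCA (1.55% of all windows), were in no member window. Both strands were searched, and none of these 4 motifs contains another.

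NMDA receptors need GluN1, encoded by *Grin1*, joined by GluN2 subunits that bind glutamate or by GluN3 subunits that bind glycine. Among these genes *Grin3a*, at chr4:49661611-49845744 (minus strand), encodes GluN3A, which lowers the calcium permeability of the channel. It was 38.6, 45.7 and 35.4 CPM in the compared males and 25.4, 20.0, 20.4 and 22.1 CPM in the females, without overlap. Male replicate 1 was far below both, at 8.16 CPM. The log2 fold change of 0.83 (SE 0.16) missed the threshold narrowly (adjusted p = 0.0508 by edgeR; exact permutation p = 0.0286).

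*Grin1* was 14.0 ± 2.51 CPM in males (SD, n = 3) and 16.0 ± 7.54 CPM in females (SD, n = 4), and its exons overlap those of *Grin1os* on the other strand. *Grin2a* was 22.0 ± 2.75 and 19.2 ± 4.97 CPM, and neither gene separated the sexes. The direction of *Grin2a* (log2 fold change 0.17) turned to -0.046 with library size alone as the scaling. *Grin2b*, the other main GluN2 subunit of the forebrain, was at 0 in the compared males and between 0 and 3.59 CPM in the females, and *Grin2c*, *Grin2d* and *Grin3b* had means of at most 1.43 CPM. Per kb of exon, *Grin3a* made up 51.4% of the NMDA receptor transcripts in these males (range 46.9 to 56.3%) and 35.7% in the females (30.2 to 41.6%), and 14.6% in male replicate 1.

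**Figure D4:**
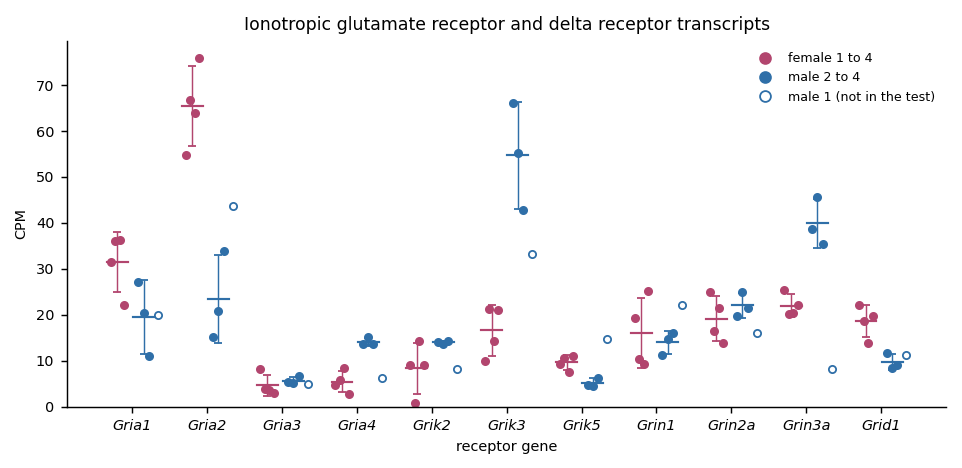
CPM (vertical axis, linear) of 11 ionotropic glutamate and delta receptor genes in each sample, with the mean and SD of female replicates 1 to 4 and of male replicates 2 to 4. *Grik3*, *Grin3a* and *Gria4* lie higher in these males and *Gria2*, *Grik5* and *Grid1* higher in the females without overlap, and male replicate 1 (open circles) falls outside the male range for each of these genes except *Grid1*.

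The delta receptors resemble glutamate channels but act mainly as synaptic adhesion proteins that bind cerebellins. *Grid1* was 22.0, 18.6, 13.8 and 19.8 CPM in the females and 11.6, 8.42 and 8.99 CPM in the compared males. The groups did not overlap, and the log2 fold change was -0.97 (SE 0.22, adjusted p = 0.0723 by edgeR, exact permutation p = 0.0571). The metabotropic glutamate receptors were scarce, with a sum over 8 genes of 2.11 to 4.26 CPM in these males and 3.13 to 5.14 CPM in the females. *Grm7*, the highest per kb, was 0.780 ± 0.158 CPM in males (SD, n = 3) and 1.73 ± 0.629 CPM in females (SD, n = 4; log2 fold change -1.18, adjusted p = 0.212).

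GABA-A receptor transcripts summed to between 224 and 259 CPM in the compared males, to between 156 and 214 CPM in the females and to 111 CPM in male replicate 1. None of the 13 tested genes of this family passed the test by edgeR. An unadjusted p under 0.05 was found for 5 of them, against 39.6% of the 48 members tested and 19.9% of all genes tested.

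*Gabrg1*, *Gabra2*, *Gabra4* and *Gabrb1* lie side by side on chromosome 5, at chr5:70751047-72149037, and each was higher in each of the compared males than in any female. With library size alone, *Gabrb1* (lowest male 30.9 CPM, highest female 32.8 CPM) and *Gabrg1* (1.11 and 1.34 CPM) overlapped between the sexes. *Gabra2* was 11.6, 9.36 and 17.6 CPM in these males and 6.37, 6.88, 1.96 and 5.88 CPM in the females. *Gabra4* was 9.73, 11.4 and 18.3 CPM in these males and 2.82, 5.56, 7.92 and 7.74 CPM in the females. *Gabrb1* was 34.1, 34.2 and 64.4 CPM in these males and 8.17, 30.0, 29.5 and 23.2 CPM in the females. The log2 fold changes were 1.33 for *Gabrg1* (SE 0.48), 1.25 for *Gabra2* (SE 0.45), 1.10 for *Gabra4* (SE 0.40) and 0.93 for *Gabrb1* (SE 0.47). None passed, with adjusted p between 0.186 and 0.332 by edgeR. The exact permutation p was 0.0286 for *Gabra2* and *Gabra4*, 0.0571 for *Gabrg1* and 0.0857 for *Gabrb1*. *Gabra4* and *Gabrb1* start beside each other on opposite strands, and their annotated exons overlap by a few bases. Male replicate 1 was below the other males for each of the 4 genes, at 0.786, 4.37, 7.07 and 28.6 CPM.

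Other GABA-A receptor genes were lower or had the other direction. *Gabrg3*, on chromosome 7, was 4.43 ± 1.39 CPM in males (SD, n = 3) and 6.06 ± 1.34 CPM in females (SD, n = 4), with overlap. *Gabrb2*, on chromosome 11, had means of 1.03 and 0.384 CPM. *Gabrd*, the delta subunit of receptors outside synapses, was 4.88, 8.34, 3.87 and 3.80 CPM in the females and 1.69, 2.91 and 2.27 CPM in the compared males, without overlap (log2 fold change -1.22, SE 0.38, adjusted p = 0.142). Of the rho subunits, *Gabrr2* alone had counts, in 4 of the 8 samples, and reached 1.81 CPM in female replicate 3.

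GABA-B receptors are made of 1 GABA-B1 subunit, which binds GABA, and 1 GABA-B2 subunit, which couples to the G protein. *Gabbr1* was 30.5, 20.0, 20.4 and 20.7 CPM in the females, 14.5, 17.0 and 15.9 CPM in the compared males and 47.0 CPM in male replicate 1. *Gabbr2* was 7.91, 6.39, 6.11 and 6.23 CPM in the females, 8.31, 9.32 and 10.5 CPM in these males and 8.86 CPM in male replicate 1. Both genes separated the sexes, in opposite directions, with log2 fold changes of -0.57 (SE 0.20, adjusted p = 0.181) and 0.47 (SE 0.18, adjusted p = 0.221). Neither passed by edgeR, and the exact permutation p was 0.0286 for *Gabbr1* and 0.0571 for *Gabbr2*. With library size alone, *Gabbr2* overlapped, its lowest male being 7.53 CPM and its highest female 8.83 CPM. With male replicate 1 in the fit, the log2 fold change of *Gabbr1* was 0.041. Per kb of exon, *Gabbr1* was 59.2% of the pair in these males (range 56.5 to 61.0%), 74.5% in the females (73.0 to 76.8%) and 82.0% in male replicate 1.

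Glycine receptors are built from alpha subunits, which bind glycine, and the beta subunit, which anchors them at synapses. *Glrb*, the beta subunit, was 13.7 ± 5.17 CPM in males (SD, n = 3) and 17.7 ± 4.82 CPM in females (SD, n = 4). *Glra1* was 7.39 ± 2.53 and 6.36 ± 0.798 CPM, and its direction (log2 fold change 0.19) turned to -0.035 with library size alone as the scaling and to -0.029 without male replicate 2. *Glra2*, on the X chromosome, was 8.98, 5.40 and 11.7 CPM in the compared males and 3.17, 2.98, 5.77 and 5.27 CPM in the females, with overlap (log2 fold change 0.99, SE 0.36, adjusted p = 0.191).

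**Figure D5:**
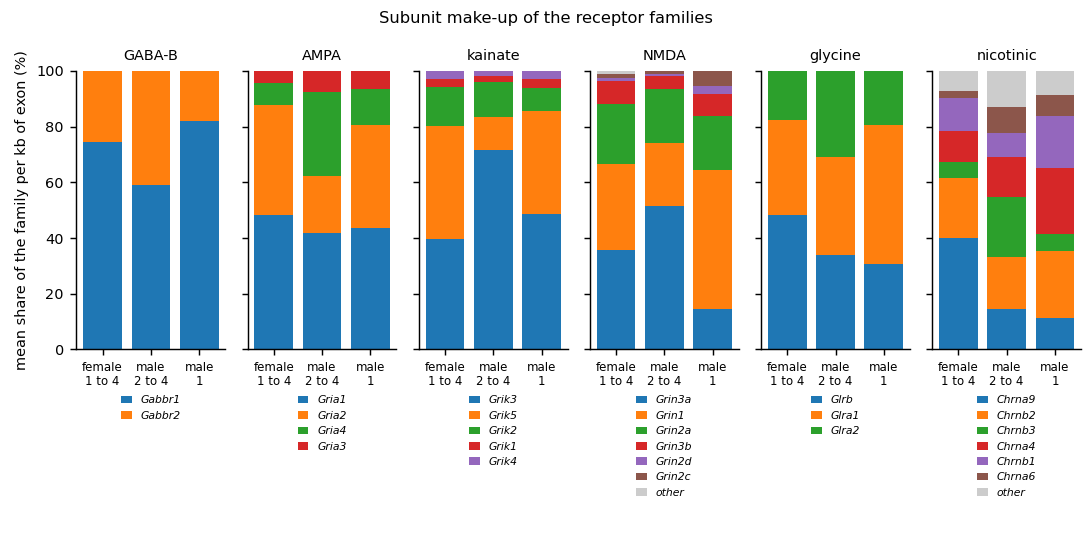
Stacked bars of the mean share of each subunit in its receptor family (vertical axis, percent of the family's summed CPM per kb of exon) in female replicates 1 to 4, male replicates 2 to 4 and male replicate 1. *Grik3* takes 71.5% of the kainate receptor bar in these males and 39.6% in the females, and *Gria2* takes 20.5% and 39.7% of the AMPA receptor bar.

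Male replicate 1 lay outside the range of the compared males for most receptor genes with a mean of at least 1 CPM, as it did for most genes of the table at that level. It also stood apart in *Malat1*, a nuclear noncoding RNA, at 110079 CPM against 7790 to 9998 CPM in the compared males, and in the sum of the 4 endothelial markers, at 672 CPM against 350 to 472 CPM, and their part in its receptor values was not tested. Among the 40 members with a mean of at least 1 CPM, it lay above the range of the compared males for 10, below it for 22 (55.0%) and inside it for 8. Over all 17090 entries at that level, it lay above this range for 34.7%, below it for 37.1% and inside it for 28.2%. With it included, no member passed the test by edgeR, 14 of 47 (29.8%) had an unadjusted p under 0.05, against 10.2% of all genes tested, and 67 genes (0.342%) passed over the whole table.

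The genes that make, carry, anchor or assist these receptors and their transmitters were taken from 10 lists with 86 genes in all. Of the 74 tested, 2 were called higher in males and 5 higher in females by edgeR, beside 0.983% and 1.35% of all genes tested. *Gad2*, which makes GABA, was 11.6 ± 2.69 CPM in the compared males (SD, n = 3) and 39.1 ± 11.3 CPM in the females (SD, n = 4; log2 fold change -1.78, SE 0.30, adjusted p = 0.0402). The other GABA-making enzyme, *Gad1*, had means of 1.25 and 0.0993 CPM, and the vesicular GABA transporter *Slc32a1* had means of 0.239 and 0.249 CPM, near the floor. *Kctd8*, an auxiliary subunit of GABA-B receptors, was higher in males (10.5 ± 2.53 against 2.68 ± 0.475 CPM; log2 fold change 1.94, SE 0.23, adjusted p = 0.0189).

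Among the AMPA and kainate receptor auxiliary subunits, *Shisa9* was higher in males (32.2 ± 5.68 against 15.3 ± 2.26 CPM; log2 fold change 1.04, adjusted p = 0.0457 by edgeR). *Cnih2*, which carries AMPA receptors to the surface, was higher in females (3.58 ± 0.530 CPM in males, 17.9 ± 6.72 CPM in females; log2 fold change -2.36, adjusted p = 0.0296). *Neto1*, a partner of kainate receptors, was also higher in females (0.973 ± 0.334 against 3.21 ± 0.263 CPM; log2 fold change -1.75, adjusted p = 0.0470). So were the scaffold gene *Dlg3* (20.1 ± 1.57 against 37.4 ± 0.987 CPM; log2 fold change -0.93, adjusted p = 0.0296) and the delta receptor ligand *Cbln2* (0.413 ± 0.125 against 2.06 ± 0.528 CPM; log2 fold change -2.33, adjusted p = 0.0475). In male replicate 1, *Cnih2* was 14.2 CPM, within the female range, and *Dlg3* 43.4 CPM, above it, while *Gad2*, at 6.85 CPM, was below the other males. The calls of *Shisa9*, *Neto1*, *Dlg3* and *Cbln2* were lost whichever of the 7 samples was left out (adjusted p between 0.0529 and 0.146). *Gad2* kept its call only without female replicate 2 (0.0488) and *Cnih2* only without female replicates 2 (0.0344) or 4 (0.0434), while *Kctd8* lost it without female replicate 2 (0.0545), female replicate 3 (0.0525), male replicate 2 (0.0552) or male replicate 3 (0.0518). The summed neuron markers, given above, were also higher in every female than in these males, and their part in the female excess of these genes was not tested.

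For glutamate, the vesicular transporter *Slc17a6* had means of 24.5 CPM in males and 15.6 CPM in females, whereas *Slc17a7* and *Slc17a8* had means of at most 2.47 and 6.33 CPM. For acetylcholine, *Chat*, which makes the transmitter, was at 0 counts in all 8 samples, and its vesicular transporter *Slc18a3* had counts in male replicate 1 only, at 0.393 CPM. A count of 0 allows up to 0.146 CPM at these depths.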

How the data were processed

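RNA from sorted EGFP-positive pituitary cells was sequenced from 4 male and 4 female samples. The authors trimmed reads with cutadapt, mapped them to mm10 with STAR, counted them per gene with featureCounts and deposited raw counts in 1 table. The methods give default parameters for each tool, and the annotation is not given in the sources used here. Of the members, 45 were named by an MSTRG locus, a form that StringTie gives, and 23 by an Ensembl gene, each symbol once. No column lacked a sample.

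Members, partner lists and marker lists were chosen with earlier results of these data known. The partner and marker lists are from general knowledge. Named members passed the adjusted p of 0.05, or had a mean of at least 5 CPM in a sex, or led their family per kb, or had sexes that did not overlap with an absolute log2 fold change over 1. A few genes that the rules name are not reported here.

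Counts were tested with edgeR 4.0.16 (glmQLFit, TMM over 7 samples, filterByExpr), with Benjamini-Hochberg adjustment over all genes. DESeq2 1.42.0, other scalings and filters, all 8 samples, a replicate block and leaving out each sample were the alternatives. For single members, a two-sided exact permutation test used mean log2(CPM + 1) over 35 assignments. CPM used TMM over 8 samples. The fit was checked on simulated counts. Exon lengths and gene coordinates came from GENCODE M21 (GRCm38), and promoters from RefSeq. R 4.3.3, Python 3.11.15, pandas 2.3.3 and scipy 1.17.1 were used.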

Additional observations from a re-analysis of the deposited data

Results flagged for a closer look

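In each sex, the highest or lowest of the 4 samples was compared with the other three by the gap to its nearest neighbor over the range (Dixon's test), for 31 named members and 10 family sums. Chance passes about 1 in 20 groups, or 4.1 of the 82 groups, and 11 passed, with 4 of them at male replicate 1.

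Male replicate 1 stood above the other males for *Gabbr1* (47.0 CPM, others 14.5 to 17.0 CPM), for the GABA-B receptor sum (55.8 CPM, others 22.9 to 26.4 CPM) and for *Grik5* (14.6 CPM, others 4.57 to 6.27 CPM). It stood below them for *Grik2* (8.16 CPM, others 13.6 to 14.3 CPM). For *Gabrb1*, male replicate 4 stood above the other males (64.4 CPM, others 28.6 to 34.2 CPM).

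Female replicate 1 stood above the other females for *Gabbr1* (30.5 CPM, others 20.0 to 20.7 CPM), *Gabbr2* (7.91 CPM, others 6.11 to 6.39 CPM), the GABA-B receptor sum (38.4 CPM, others 26.4 to 26.9 CPM) and *Gria3* (8.08 CPM, others 2.98 to 3.76 CPM). Female replicate 3 had 1.81 CPM of *Gabrr2*, and so of the rho family sum, where the other females had 0.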

How the results depend on the processing

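The count of genes called (471) and of members called (2) moved with most settings. These counts were 2329 and 9 with DESeq2, 808 and 5 with library size alone, 177 and 1 with no filter beyond 1 count, and 67 and 0 with all 8 samples. With at least 10 counts in every sample, 4 of 38 members (10.5%) were called, against 582 of 15991 genes (3.64%). Leaving out 1 of the 7 samples gave between 88 and 171 genes and between 0 and 1 member. At an unadjusted p under 0.05, edgeR found 14 members with all 8 samples (29.8%, against 10.2% of all genes tested) and 12 with the replicate block (25.0%, against 14.7%). With the replicate block, 0 genes and 0 members were called, and same-numbered samples did not deviate together (correlations of -0.02, -0.01 and -0.001), so that the numbers do not pair the samples. The cause of these changes was not tested. With library size alone, the median over all genes was -0.24 on the log2 scale, against -0.03.

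At 5 CPM in every sample, 20 members were detected in females instead of 34, and leaving out 1 sample gave 36 to 38 in males and 34 to 37 in females. Some signs of named members reversed: *Gabbr1* was 0.041 on the log2 scale with all 8 samples, *Glra1* -0.035 and *Grin2a* -0.046 with library size alone, and *Grin1* 0.0062 with the replicate block. Leaving out 1 sample gave values between -0.080 (without female replicate 3) and 0.64 for *Chrna4*, between -0.029 (without male replicate 2) and 0.44 for *Glra1*, and between -0.39 and 0.10 (without female replicate 4) for *Grin1*. Members under about 1 CPM rest on few counts. No tested member at that level was called in the main edgeR fit, and 14 members with counts were not tested.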
